A study of Mus musculus with 7 samples.

Results

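The genes described here encode the enzymes and the chaperone that modify and cross-link collagen, 10 genes chosen by name: the lysyl oxidases Lox, Loxl1, Loxl2, Loxl3 and Loxl4, the lysyl hydroxylases Plod1 and Plod2, the prolyl hydroxylase subunits P4ha1 and P4ha2, and the collagen chaperone Serpinh1. All 10 matched an identifier among the 42687 genes of the count table, and all 10 passed the filter on low counts that left 14304 genes for testing. RNA came from femur cells sorted for surface CD24 and CD29 (integrin beta 1), a population that the labels call skeletal stem cells. The mice were C57BL/6, aged 3 months when the diets began, and ate either a low fat diet with 10% fat (LFD, 4 libraries numbered 1 to 4) or a high fat diet with 60% fat (HFD, 3 libraries numbered 2 to 4) for 4 weeks. The comparison asks how the diets differ in the transcripts of the sorted cells.

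Collagen chains are modified in the endoplasmic reticulum before they leave the cell. Prolyl hydroxylases modify prolines, which lets the collagen helix hold at body temperature, and lysyl hydroxylases modify lysines that later carry sugars and cross-links. Outside the cell, lysyl oxidases, which are copper enzymes, turn lysines and hydroxylysines into aldehydes that join neighbouring molecules, and the hydroxylation made earlier sets which kind of cross-link forms. Bone and cartilage depend on these steps for their stiffness.

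Total counts ranged from 17391613 to 24681838 per library, and the 10 genes together took 0.220% to 0.315% of the counts in LFD libraries and 0.340% to 0.557% in HFD libraries. The sorting gene Itgb1 measured 368 to 497 CPM (counts scaled to a common library total of 1e6 with TMM factors), Cd24a 774 to 4852 CPM, and the blood cell gene Ptprc 0.117 to 24.8 CPM in LFD and 49.6 to 55.9 CPM in HFD. Xist had 257 to 526 counts in LFD libraries and 0 in HFD libraries, and 4 Y-linked genes together had 1 to 5 counts in LFD and 2494 to 3405 in HFD. Diet and sex of the animals therefore cannot be told apart in any comparison below, although none of the 10 genes lies on X or Y. Because the cells were measured in bulk, fewer cells of a type and less RNA per cell cannot be told apart either. Nothing in the labels says that libraries came from separate animals, so p-values measure the spread between these libraries, which may be technical.

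None of the 10 genes passed the adjusted threshold of 0.05 between the diets by edgeR's quasi-likelihood test, by DESeq2 or by limma-voom, against 0.0350%, 2.25% and 0.182% of all genes tested with each tool. Fitted values were higher in HFD for 7 members and lower for 3, and the median log2 fold change was 0.50, beside 0.02 over all genes tested. At an unadjusted p under 0.05 DESeq2 gave 7 of 10, against 8.20% of all genes, and limma-voom 7 of 10, against 16.5%. The edgeR test gave 5 of 10, against 7.53% of all genes, and this count depended on single libraries. It was 5 without LFD 1 (14.3% of all genes), 2 without LFD 2 (6.45%), 1 without LFD 3 (6.55%) and 3 without LFD 4 (7.70%). Among the HFD libraries it was 1 without HFD 2 (4.19%), 1 without HFD 3 (5.24%) and 6 without HFD 4 (7.63%). With all libraries the 5 were Loxl3, P4ha1, P4ha2 and Serpinh1 on the higher side, where 5.18% of all genes lay, and Loxl1 on the lower side, where 2.35% lay. The 2 groups of libraries did not overlap for 4 of 10, against 11.9% of all genes: Lox, P4ha2 and Serpinh1 were higher (8.40% of all genes) and Loxl1 was lower (3.47%). The hydroxylases and the chaperone thus all had positive fold changes with all libraries (Plod1 was at -0.03 without HFD 2), while the lysyl oxidases were divided, with Lox and Loxl3 positive and Loxl1, Loxl2 and Loxl4 negative (Loxl4 was at 0.06 without LFD 1).

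**Figure D1:**
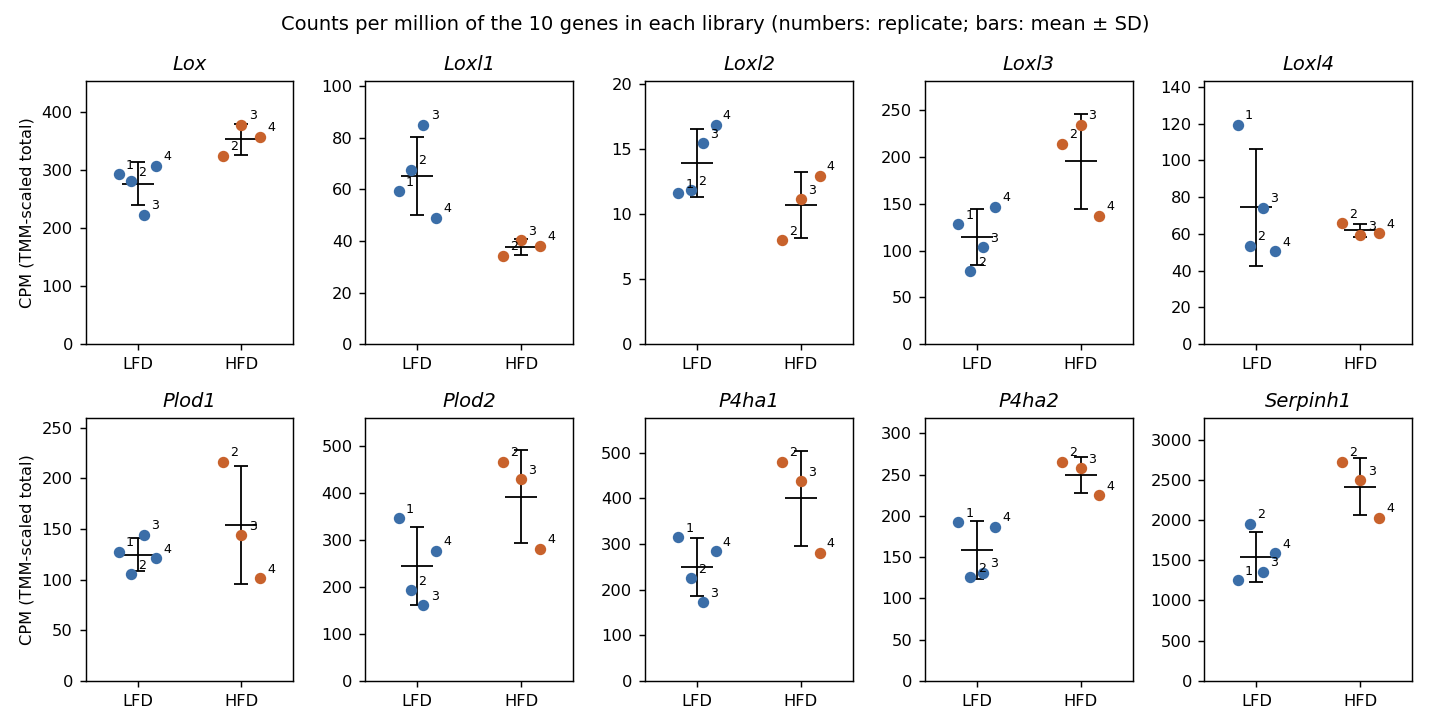
CPM (vertical axis, from 0) of each of the 10 genes in the 4 LFD and 3 HFD libraries. Points are libraries with their replicate number, and bars give the mean ± SD. The HFD libraries lie above every LFD library for Lox, P4ha2 and Serpinh1 and below every LFD library for Loxl1.

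Per kilobase of the exon length of each gene, so that genes can be compared, Serpinh1 stood far above the enzymes. Its level was 630 ± 128 CPM per kilobase in LFD (SD, n = 4) and 989 ± 145 in HFD (n = 3). Next came P4ha1 (60.5 ± 15.4 and 97.1 ± 25.5 CPM per kilobase), Lox (57.7 ± 7.72 and 73.8 ± 5.58) and Plod2 (45.5 ± 15.5 and 72.9 ± 18.2), whose neighbours in this order were not separated, since P4ha1 exceeded Lox in 4 of 7 libraries and Lox exceeded Plod2 in 4 of 7. Loxl3 (24.8 ± 6.52 and 42.4 ± 11.1) and P4ha2 (25.5 ± 5.67 and 40.0 ± 3.45) followed at nearly the same level, with Loxl3 above P4ha2 in 4 of 7 libraries. Plod1 (18.4 ± 2.39 and 22.8 ± 8.59), Loxl4 (17.7 ± 7.53 and 14.7 ± 0.827) and Loxl1 (19.8 ± 4.62 and 11.4 ± 0.930) had overlapping ranges. Loxl2 was the lowest, at 2.58 ± 0.484 and 1.98 ± 0.466 CPM per kilobase, and no library of Loxl2 reached the lowest library of Loxl1. The length used mattered for genes with many transcripts: per kilobase of the longest transcript, P4ha2 measured 51.9 in LFD and 81.5 in HFD, Plod1 30.4 and 37.6, and Plod2 66.9 and 107, which put Plod2 above P4ha1.

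**Figure D2:**
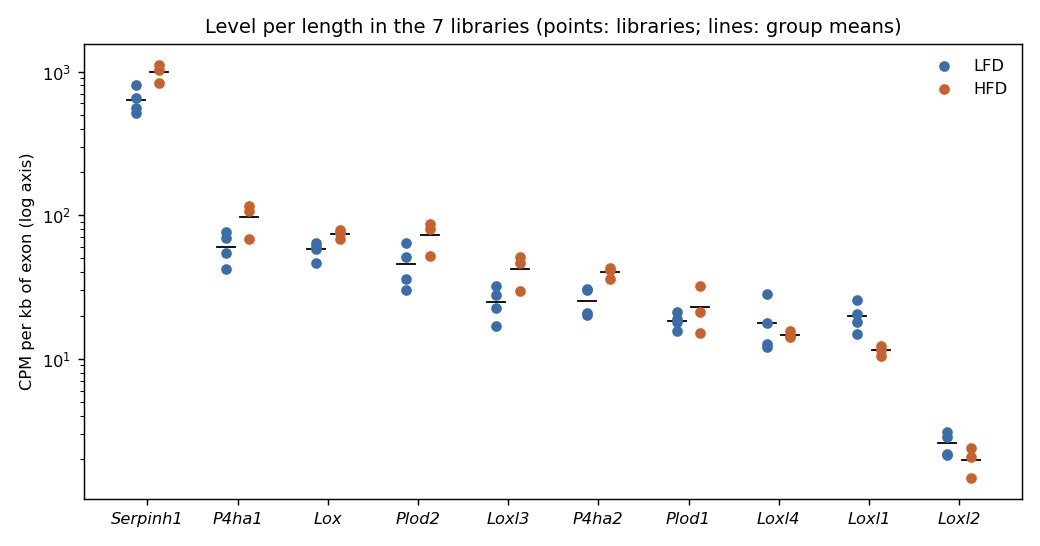
Level per kilobase of exon (log axis) of the 10 genes in order of their mean over the 7 libraries. Points are libraries and lines are group means; Serpinh1 is at 512.5 CPM per kilobase or more in every library and Loxl2 at 3.12 or less.

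Lox, the founding lysyl oxidase and the main cross-linking enzyme of fibrillar collagen and elastin (chromosome 18, 52516067 to 52529867 in the mm10 build), had the steadiest level of the 10 genes, with a highest library 1.69 times its lowest. It measured 293, 280.0, 223 and 307 CPM in LFD libraries 1 to 4 and 324, 377 and 357 CPM in HFD libraries 2 to 4. The groups did not overlap, but the gap between LFD 4 and HFD 2 was smaller than the spread within LFD. In the fit across all genes its log2 fold change was 0.36 ± 0.21 (SE), with a 95% interval from -0.12 to 0.83 and an adjusted p of 0.694 by edgeR.

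Loxl1, an oxidase tied to elastic fibres (chromosome 9, 58287738 to 58313186), had a fold change of the opposite sign. Its values were 59.4, 67.7, 85.0 and 48.98 CPM in LFD and 34.4, 40.4 and 38.3 CPM in HFD. Every HFD library thus lay below every LFD library, and the 3 HFD values were close together (mean 37.7 ± 3.07 CPM) while the LFD values ranged more widely (65.3 ± 15.2 CPM). The log2 fold change was -0.79 ± 0.23, 0.577 times the LFD level, with an interval from -1.31 to -0.27. Loxl1 had the smallest p of the 10 genes, in rank 291 of 14304, and an adjusted p of 0.388 by edgeR and 0.0728 by DESeq2.

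Loxl3 (chromosome 6, 83034173 to 83052562), an oxidase needed for palate and spine development, had the largest positive fold change of the 10. It measured 128, 78.1, 103 and 147 CPM in the LFD libraries and 214, 234 and 137 CPM in the HFD libraries. HFD 2 and HFD 3 stood above all LFD libraries, and HFD 4 lay within the LFD range. This gave a log2 fold change of 0.77 ± 0.28, with an interval from 0.12 to 1.43 and an adjusted p of 0.589 by edgeR. Exons of Loxl3 share 535 bases (11.6% of its exon length) with Htra2 on the other strand, and the strand setting of the counting is not given in the sources used here, so reads of the pair in this stretch cannot be told apart.

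The remaining oxidases gave smaller differences. Loxl2 (chromosome 14, 69609068 to 69695834), which also crosslinks basement membrane collagen, was measured with 189 to 341 counts per library and had 11.6, 11.8, 15.4 and 16.9 CPM in LFD and 7.97, 11.2 and 12.9 CPM in HFD, a log2 fold change of -0.38 ± 0.31 (adjusted p = 0.755 by edgeR). The groups overlapped, with HFD 2 and HFD 3 below the LFD range and HFD 4 within it. Without HFD 2 the log2 fold change of Loxl2 was -0.22. Loxl4 (chromosome 19, 42593982 to 42612813) measured 119, 53.6, 74.3 and 50.7 CPM in the LFD libraries and 66.0, 59.5 and 60.5 CPM in the HFD libraries. LFD 1 was the high library for Loxl4, and the sign of the fold change rested on it: -0.27 ± 0.31 with all libraries and 0.06 without LFD 1 (-0.41 without LFD 4), and 0.03 by limma-voom, which gave LFD 1 the lowest weight of the 7.

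Within the lysyl oxidases, the makeup of the family differed between the groups for Loxl1. As shares of the length-scaled sum of the 5 genes, Loxl1 took 13.1%, 18.5%, 22.3% and 11.8% in LFD libraries 1 to 4 and 7.34%, 7.74% and 8.74% in HFD libraries 2 to 4. The groups did not overlap for this share. Lox took the largest share in every library, from 40.4% to 56.2%, Loxl3 took 15.3% to 25.3% in LFD and 22.5% to 32.8% in HFD, and Loxl2 at most 2.47%. These shares are descriptions without a test, since a higher share of Loxl3 lowers the others by arithmetic.

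Plod1 and Plod2 are lysyl hydroxylases with different targets: Plod1 acts on lysines of the collagen helix and Plod2 on those of the telopeptides, the short ends where cross-links start. Plod2 (chromosome 9, 92542223 to 92608428) measured 347, 194, 162 and 278 CPM in the LFD libraries and 467, 429.8 and 282 CPM in the HFD libraries. HFD 2 and HFD 3 were the highest libraries, whereas HFD 4 lay below LFD 1 and close to LFD 4. Plod2 had a log2 fold change of 0.68 ± 0.32, with an interval from -0.07 to 1.43 and an adjusted p of 0.685 by edgeR. Exons of Plod2 share 346 bases (6.42%) with the unnamed transcript Gm38391 on the other strand, which had 1004 counts in all libraries together beside 48371 for Plod2.

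Plod1 (chromosome 4, 147909753 to 147936767) measured 128, 105, 144 and 121 CPM in the LFD libraries and 216, 144 and 102 CPM in the HFD libraries. HFD 2 alone stood above the LFD libraries, and HFD 4 was the lowest library of all. Its log2 fold change was 0.31 ± 0.27 with all libraries (adjusted p = 0.781 by edgeR), -0.03 without HFD 2 and 0.54 without HFD 4. The ratio of Plod2 to Plod1 per kilobase was 3.41, 2.31, 1.41 and 2.88 in LFD and 2.71, 3.74 and 3.48 in HFD, so the groups overlapped and Plod2 exceeded Plod1 in all 7 libraries. Plod3, a relative of both, is not among the 10 genes, and its enzyme also adds glucose to hydroxylysine that already carries galactose. Plod3 averaged 51.0 ± 18.1 CPM (LFD) and 73.9 ± 7.56 CPM (HFD), a log2 fold change of 0.53 ± 0.29 (adjusted p = 0.693 by edgeR).

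P4ha1 and P4ha2 encode the catalytic alpha subunits of collagen prolyl hydroxylase. P4ha1 (chromosome 10, 59323296 to 59373304) measured 314, 224, 173 and 284 CPM in the LFD libraries and 480.1, 437 and 281 CPM in the HFD libraries. As for Plod2, HFD 2 and HFD 3 were above all LFD libraries and HFD 4 was not. P4ha1 had a log2 fold change of 0.68 ± 0.29 (interval from 0.01 to 1.36, adjusted p = 0.658 by edgeR).

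P4ha2 (chromosome 11, 54100095 to 54131665), the isoform typical of cartilage and bone cells, measured 192, 126, 131 and 187 CPM in the LFD libraries and 266, 258 and 225 CPM in the HFD libraries. Here all 3 HFD libraries lay above all 4 LFD libraries. The log2 fold change was 0.65 ± 0.23 (interval from 0.12 to 1.18, adjusted p = 0.542 by edgeR). P4ha2 per P4ha1 (both per kilobase of exon) was 0.403, 0.370, 0.4998 and 0.433 in LFD and 0.365, 0.388 and 0.528 in HFD. The means were nearly equal (0.426 ± 0.0552 and 0.427 ± 0.0881). The size of this ratio depends on the lengths used. Per kilobase of the longest transcript, P4ha2 averaged 51.9 CPM (LFD) and 81.5 CPM (HFD), beside 61.6 and 98.8 for P4ha1. P4hb, the shared beta subunit of the enzyme, averaged 1013 ± 172 CPM (LFD) and 1302 ± 225 CPM (HFD), a log2 fold change of 0.36 ± 0.27 (adjusted p = 0.734 by edgeR).

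Serpinh1 encodes the chaperone HSP47, which holds folded procollagen during its transport out of the endoplasmic reticulum (chromosome 7, 99345376 to 99353239). It measured 1252, 1956, 1357 and 1588 CPM in the LFD libraries and 2727, 2495 and 2029 CPM in the HFD libraries. The groups did not overlap, though HFD 4 was only a little above LFD 2. The log2 fold change was 0.65 ± 0.28 (interval from 0.01 to 1.30, adjusted p = 0.658 by edgeR), 1.57 times the LFD level. Serpinh1 was low in LFD 1, where Plod2, P4ha1 and P4ha2 had their highest LFD values.

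The sequences upstream of P4ha1, P4ha2 and Serpinh1 are shown because these are the members with a higher HFD mean at an unadjusted p under 0.05 that the promoter table held. Each is the 250 bases before the RefSeq start site (GRCm38.p6), read on the strand of the gene, and none overlaps an exon of its own gene, although the P4ha2 window lies inside the GENCODE span of the gene, before a later start site. Capitals mark the letters ACGTG or GCGTG on either strand, the core of the hypoxia response element, to which hypoxia-inducible factors bind and through which prolyl and lysyl hydroxylase genes are known to respond to low oxygen. The windows are chr10:59323046-59323295 (plus strand) for P4ha1, chr11:54100674-54100923 (plus strand) for P4ha2 and chr7:99353240-99353489 (minus strand) for Serpinh1.
P4ha1: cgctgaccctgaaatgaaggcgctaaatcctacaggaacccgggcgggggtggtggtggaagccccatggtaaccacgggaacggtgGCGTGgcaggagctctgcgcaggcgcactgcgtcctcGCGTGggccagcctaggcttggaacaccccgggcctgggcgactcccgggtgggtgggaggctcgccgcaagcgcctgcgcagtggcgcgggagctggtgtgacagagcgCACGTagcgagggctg
P4ha2: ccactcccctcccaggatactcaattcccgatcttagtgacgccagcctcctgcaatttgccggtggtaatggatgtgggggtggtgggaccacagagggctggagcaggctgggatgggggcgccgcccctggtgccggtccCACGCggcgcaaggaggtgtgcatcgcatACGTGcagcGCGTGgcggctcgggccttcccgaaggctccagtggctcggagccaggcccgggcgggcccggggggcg
Serpinh1: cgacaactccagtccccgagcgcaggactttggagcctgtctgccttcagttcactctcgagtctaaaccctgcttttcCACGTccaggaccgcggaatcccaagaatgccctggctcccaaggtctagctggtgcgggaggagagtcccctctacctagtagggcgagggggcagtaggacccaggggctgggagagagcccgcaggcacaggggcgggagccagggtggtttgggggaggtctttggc

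In P4ha1, GCGTG begins 163 and 126 bases before the start site and ACGTG, on the opposite strand, 16 bases before it. In P4ha2, ACGTG and GCGTG lie close together, beginning 78 and 69 bases before the start, with a further GCGTG on the opposite strand at 107, and no match overlaps another. Serpinh1 has ACGTG on the opposite strand at 171 and no GCGTG. The windows of Plod1 and Loxl4 were the others used, and each holds 1 GCGTG. All 5 windows thus hold at least 1 core, as do 38.6% of the 32851 promoter windows of this length (ACGTG 16.6%, GCGTG 28.2%). The heat shock repeat GAANNTTC was in none of the 5 windows and in 6.69% of all, the CCAAT box (either strand) in none and in 33.8%, the TATA box TATAAA in 1 (Plod1) and in 12.4%, and the GC box GGGCGG in all 5 and in 32.7%. All were searched on both strands. The letters G and C made up 61.6% (Plod1) to 76.0% (Loxl4) of the 5 windows, and the windows compared were not matched for this. The percentages therefore do not show whether a motif is more or less frequent in these members than in windows of like composition. These are matches of letters, and they say nothing about binding in these cells.

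Several members had similar profiles across the 7 libraries. With each gene's log2 CPM centred on its mean, Plod2 and P4ha1 differed by a root mean square of 0.10 log2 units, while their own standard deviations over the libraries were 0.56 and 0.51. P4ha1 and P4ha2 differed by 0.19 and Loxl3 and P4ha2 by 0.20. Lox, Loxl1, Loxl2, Loxl4, Plod1 and Serpinh1 had no member closer than 0.24. In the group of Plod2, P4ha1, P4ha2 and Loxl3, LFD 2 and LFD 3 were the lowest libraries and HFD 2 and HFD 3 the highest, and LFD 1, LFD 4 and HFD 4 lay between them.

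**Figure D3:**
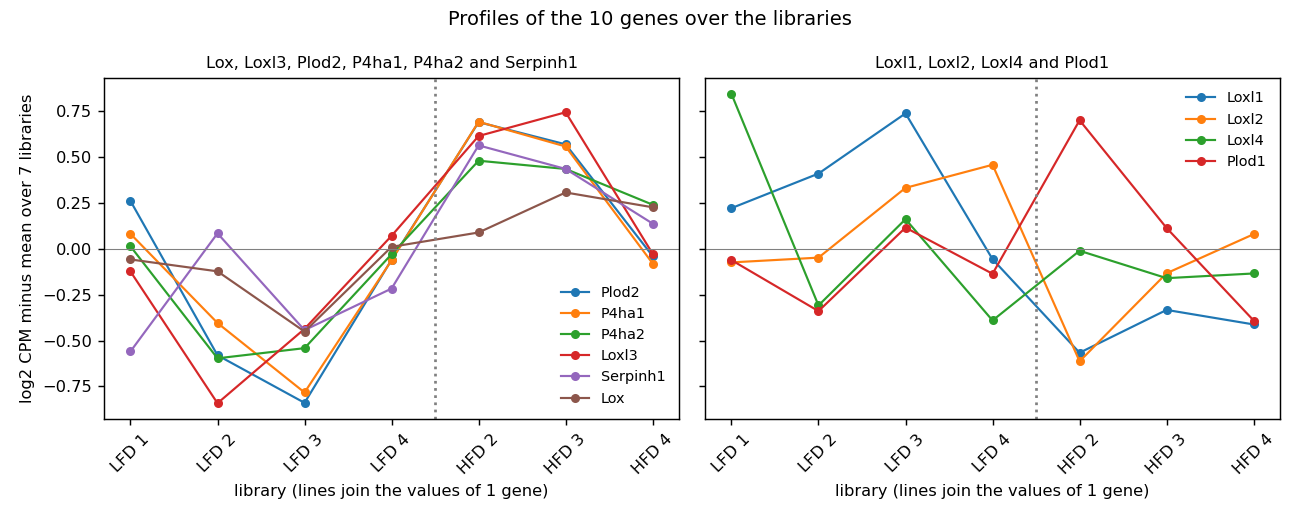
Log2 CPM of the 10 genes in each library, centred on the mean of that gene over the 7 libraries (vertical axis). The left panel holds Lox, Loxl3, Plod2, P4ha1, P4ha2 and Serpinh1 and the right panel the other 4; the dotted line separates LFD from HFD, and Plod2 and P4ha1 run close together (difference 0.10).

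Among 8981 other tested genes with a mean of at least 8 CPM, the nearest to P4ha1 by the same measure was Pcolce, which encodes an enhancer of procollagen propeptide removal (difference 0.07), and the nearest to Plod2 was the X-linked gene Pgk1 of glycolysis (0.09). The nearest to Serpinh1 was Rcn1, a calcium-binding protein of the endoplasmic reticulum (0.10), and to Loxl3 the osteopontin gene Spp1 (0.13). For Lox it was Prelid1 (0.04), for Loxl1 Pla2g12a (0.11), for Loxl2 Med1 (0.08), for Loxl4 Ttc30b (0.12) and for Plod1 Ric8a (0.07). The median difference of these candidates from a member was 0.47 to 0.65.

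Set against the collagens they act on, the groups of libraries overlapped for 9 of the 10 genes. The share of all genes that overlap on this scale was not computed, so the count has no background beside it. A larger collagen total also lowers the ratio of any gene by arithmetic. The 11 fibrillar collagen genes took 2.55% of counts in LFD 1, 5.23% to 6.78% in the other LFD libraries and 6.77% to 9.78% in HFD. Per 1000 fibrillar collagen counts, Serpinh1 had 54.2 counts in LFD 1, 21.7 to 30.003 in the other LFD libraries and 28.9 to 32.3 in HFD. LFD 1 was the highest library for all 10 of these ratios.

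Plod2 had 15.0 counts per 1000 fibrillar collagen counts in LFD 1, 2.58 to 5.25 in LFD 2 to 4 and 4.02 to 5.54 in HFD, and P4ha1 13.6, 2.75 to 5.37 and 4.01 to 5.69. The LFD means depended on LFD 1: they went from 6.37 to 3.48 for Plod2, from 6.20 to 3.72 for P4ha1, from 3.91 to 2.44 for P4ha2, from 2.76 to 1.83 for Loxl3 and from 2.01 to 0.956 for Loxl4 when it was left out, beside HFD means of 4.88, 4.96, 3.13, 2.42 and 0.783. Lox (from 6.46 to 4.38, beside 4.46 in HFD) and Serpinh1 (from 33.1 to 26.0, beside 30.3) moved less. For 6 of the 10 genes, Lox, Loxl3, Plod2, P4ha1, P4ha2 and Serpinh1, the LFD mean was above the HFD mean with LFD 1 and below it without. Loxl1 was the member whose groups did not overlap on this scale, and they did not overlap in CPM either. It had 2.57 in LFD 1, 0.917 to 1.36 in the other LFD libraries and 0.407 to 0.546 in HFD.

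**Figure D4:**
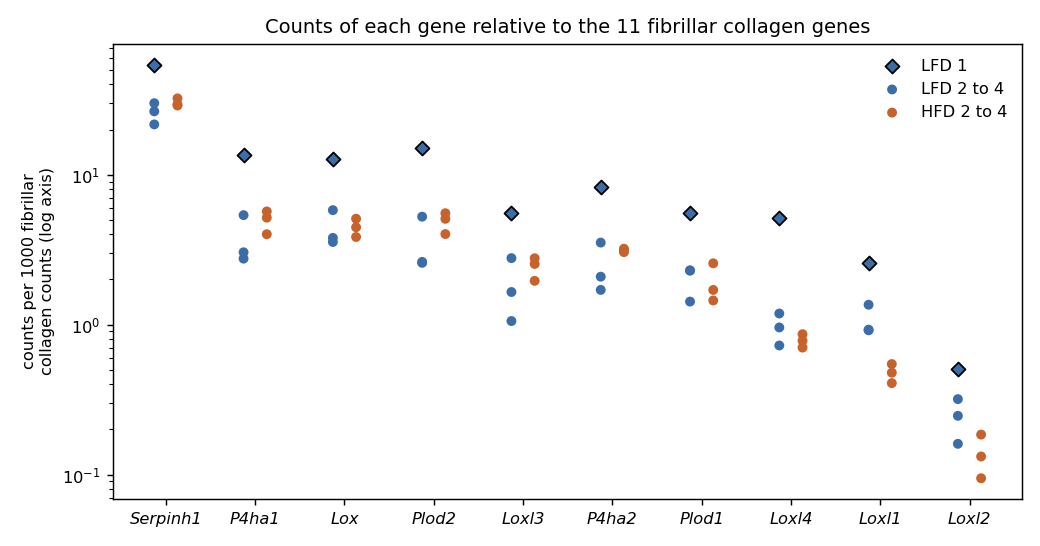
Counts of each of the 10 genes per 1000 counts of the 11 fibrillar collagen genes in the same library (log axis). Diamonds are LFD 1, which is the highest library for every gene, and for Loxl1 the HFD libraries (0.407 to 0.546) lie below all LFD libraries.

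The other genes of collagen synthesis and cross-linking, 49 in 4 lists that were all tested, gave 41 higher and 8 lower fold changes in HFD with a median log2 fold change of 0.48. By edgeR 0 of 49 passed the adjusted threshold, against 0.0350% of all genes. At an unadjusted p under 0.05 there were 8 higher, where 5.18% of all genes lay, and 1 lower, where 2.35% lay. DESeq2 called 3 (Fbln5, Adamts2 and Sparc), against 2.25% of all genes, and limma-voom 1 (Fbln5), against 0.182%. The counts at an unadjusted p in each list below stand beside the same 7.53% of all genes. All 16 other genes of modification and folding in the endoplasmic reticulum had positive fold changes (median 0.37, 2 at an unadjusted p under 0.05). Rcn3 averaged 198 ± 30.9 CPM (LFD) and 304 ± 73.3 CPM (HFD), a log2 fold change of 0.62 ± 0.24, and the collagen-binding protein gene Sparc had 0.76 ± 0.33. The genes of the prolyl 3-hydroxylase complex were nearer to 0, with P3h1 at 0.21 ± 0.23, Crtap at 0.36 ± 0.23 and Ppib at 0.26 ± 0.17, and Fkbp10, which encodes a partner of Plod2 in telopeptide hydroxylation, at 0.29 ± 0.23. The fold changes of P3h1, Crtap and Fkbp10 were negative (-0.14, -0.03 and -0.01) once the share of erythroid counts, described at the end, entered the model, and those of Rcn3 and P4hb were 0.25 and 0.07. Without HFD 2, P3h1 was at 0.01, Crtap at 0.17, Fkbp10 at 0.15 and P4hb at 0.22, and without HFD 4, P3h1 was at 0.38 and Fkbp10 at 0.44.

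Of 12 genes of procollagen export and propeptide removal, 8 had positive fold changes (median 0.53), 3 of them at an unadjusted p under 0.05. Adamts2, which encodes the protease that removes the amino-terminal propeptide, averaged 90.3 ± 18.2 CPM (LFD) and 201 ± 65.5 CPM (HFD), a log2 fold change of 1.15 ± 0.28 (adjusted p = 0.290 by edgeR). Bmp1, which encodes the protease that removes the carboxy-terminal propeptide and also activates pro-lysyl oxidase, measured 90.5 ± 10.1 and 143 ± 24.7 CPM (0.66 ± 0.19, adjusted p = 0.409 by edgeR). For both genes the groups of libraries did not overlap, as for 5 of the 12 in all. Those 5 were higher in HFD, where 8.40% of all genes lay. Of 10 genes of copper and ascorbate supply, elastic fibres and other cross-linking, 8 were positive (median 0.49), 2 of them at an unadjusted p under 0.05. Among them was Fbln5 (fibulin 5, which brings lysyl oxidases to elastin), at 15.4 ± 12.2 CPM in LFD and 129 ± 42.2 CPM in HFD (3.07 ± 0.65, adjusted p = 0.254 by edgeR), and Tgm2 (transglutaminase), at 115 ± 10.6 and 171 ± 25.5 CPM (0.58 ± 0.19).

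Of the 11 fibrillar collagens 9 were positive (median 0.65). Col1a2 had a log2 fold change of 0.87 ± 0.53, Col1a1 0.65 ± 0.59, Col2a1 0.41 ± 0.47 (-0.07 by limma-voom) and Col3a1 -0.25 ± 0.28. These values moved with single libraries and with the model. Col1a1 was at 0.36 without LFD 1, 0.41 without HFD 3, 1.02 without LFD 2, 1.11 with the erythroid share, 1.21 by limma-voom and 1.88 with 1 surrogate variable, with which Col1a2 was at 1.84. Col2a1 was at 0.17 without LFD 1 and 0.15 without HFD 2, and Col3a1 at -0.10 without HFD 4, -0.15 without LFD 2 and -0.41 without HFD 3. The minor chains with the smallest p were Col5a2 at 0.71 ± 0.27 and Col5a3 at -0.73 ± 0.28 (-0.45 without LFD 1). Of 14 targets of hypoxia-inducible factors 11 were positive (median 0.33), with 1 at an unadjusted p under 0.05, Pgk1 (0.66 ± 0.28), and Ldha at 0.63 ± 0.28. With the erythroid share in the model Pgk1 was at 0.29 and Ldha at 0.35. The groups of libraries did not overlap for 1 of the 14, Kdm3a, which was lower in HFD (-0.73 ± 0.33), where 3.47% of all genes lay. Of 10 targets of TGF-beta 9 were positive (median 0.21), and the gene with the smallest p was lower, Tagln (-1.71 ± 0.48), with Ccn2 at 0.75 ± 0.40. None of these 10 genes passed edgeR's adjusted threshold, and DESeq2 called Tagln.

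**Figure D5:**
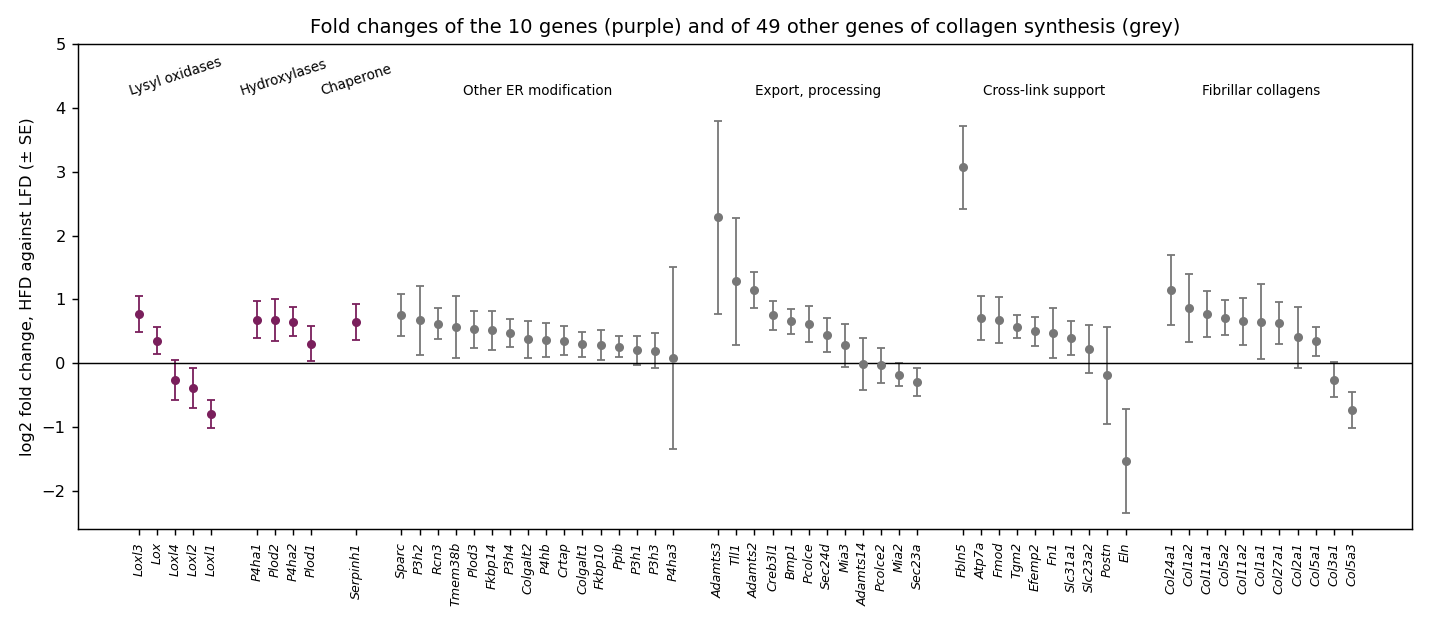
Log2 fold change of HFD against LFD with its SE (vertical axis) for the 10 genes (purple, by role) and for 49 other genes of collagen synthesis and cross-linking (grey). The hydroxylases and Serpinh1 lie above 0, the lysyl oxidases on both sides, and Fbln5 is the highest at 3.07.

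Marker genes of other cell types also differed between the groups of libraries. The 10 erythroid genes, led by Hbb-bs, were each detected in all 7 libraries. They took 10.3% to 14.3% of counts in LFD and 2.61%, 7.42% and 10.5% in HFD libraries 2 to 4. For Plod1, Plod2, P4ha1, P4ha2 and Serpinh1 the order of the HFD libraries (HFD 2, HFD 3, HFD 4) was the reverse of their erythroid share. For the lysyl oxidases it was not. Within LFD the reverse order held for Plod2 and P4ha1 but not for Plod1, P4ha2 or Serpinh1. Serpinh1 had 1252 CPM in LFD 1 (share 10.3%) and 1956 CPM in LFD 2 (12.9%). Whether the share has a part in these orders was not tested. The 10 neutrophil genes (all detected in every library, led by Ngp) took 0.106% to 0.539% in LFD and 1.003% to 1.60% in HFD. The 8 marrow reticular stroma genes (all detected, led by Cxcl12) took 0.0449% to 0.0696% in LFD and 0.164% to 0.331% in HFD, and the 8 monocyte genes (3 detected in every library, led by Lyz2, with Csf1r, Ccr2, C1qa, Adgre1 and Mrc1 at 0 in some) 0.0133% to 0.0765% and 0.183% to 0.197%. Lyz2 made up most of the monocyte sum, at a mean of 345 CPM in LFD and 1732 CPM in HFD. The next gene, Ly6c2, averaged 20.5 and 59.5 CPM. Groups did not overlap for 5 of the 8, against 11.9% of all genes, and Mrc1 was lower in HFD.

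Groups overlapped for the summed shares of osteoblast genes (0.984% to 2.40% in LFD, 2.18% to 3.48% in HFD, all 10 detected, led by Col1a1), chondrocyte genes (2.49% to 4.54% and 3.52% to 6.997%, 9 of 10 detected in every library, led by Col2a1) and fibroblast and tendon genes (0.0445% to 0.106% and 0.0796% to 0.136%, 6 of 8, led by Thbs4). Endothelial genes took 0.00173% to 0.00412% in LFD and 0.000608% to 0.00180% in HFD (4 of 8 detected in every library, led by Vwf, with Emcn, Cdh5, Flt1 and Kdr at 0 in some). B lineage genes took 0.00120% to 0.00639% and 0.00660% to 0.0129% (5 of 8, led by Ebf1), and these groups did not overlap.

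With the erythroid share as a covariate, 0 of the 10 genes had an unadjusted p under 0.05 in edgeR, against 3.57% of all genes. The log2 fold changes were then 0.26 ± 0.30 for P4ha1, 0.25 ± 0.35 for Plod2, -0.24 ± 0.26 for Plod1, 0.47 ± 0.26 for P4ha2, 0.49 ± 0.30 for Serpinh1, 0.49 ± 0.35 for Loxl3, 0.39 ± 0.23 for Lox, -0.61 ± 0.30 for Loxl1, -0.05 ± 0.39 for Loxl2 and -0.42 ± 0.42 for Loxl4. P4ha1 and Plod2 thus came to less than a log2 change of 0.3 in this fit, while Lox moved from 0.36 to 0.39. With 1 surrogate variable in place of the erythroid share, 2 of 10 had an unadjusted p under 0.05, Loxl1 (-0.54 ± 0.21) and P4ha2 (0.39 ± 0.17), against 6.03% of all genes. In that fit Plod2 was at 0.20 ± 0.18, P4ha1 at 0.26 ± 0.20, Plod1 at 0.09 ± 0.32 and Serpinh1 at 0.67 ± 0.28. Lox was at 0.27 ± 0.18, Loxl2 at -0.19 ± 0.34, Loxl3 at 0.49 ± 0.29 and Loxl4 at -0.52 ± 0.32. The erythroid share itself went with diet, at 10.3% to 14.3% in LFD and 2.61% to 10.5% in HFD. These 7 libraries therefore cannot well separate its part from that of diet or sex. The part of the other cell type shares in these differences was not tested.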

How the data were processed

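RNA was measured in 7 libraries of sorted femur cells, 4 LFD and 3 HFD, grouped by the diet in their titles. The deposited values are raw counts per Ensembl gene, whole numbers without normalization. The aligner STAR 2.5.2b, the counter HTSeq 0.11.2, the read trimmer cutadapt, bcl2fastq 2.20, DESeq2 1.26.0 and the mm10 build are listed in the submitters' processing notes, without settings. How strand and multi-mapping reads were handled, and which annotation was counted, is not given in the sources used here.

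Of 42687 identifiers 42250 had a symbol in the name table. Gene models and exon lengths came from GENCODE vM21 (GRCm38, the same build as mm10). Promoter windows came from RefSeq (GRCm38.p6), and those of 5 members were used. For the members, windows on chromosome 18, where Lox lies, were left out. Diets were compared across all genes with edgeR 4.0.16 in R 4.3.3 (quasi-likelihood, TMM, filterByExpr, robust fitting, Benjamini-Hochberg at 0.05, common coefficient of variation 0.628). The SE is the absolute log2 fold change over the square root of F, and intervals use the moderated degrees of freedom. Alternatives used DESeq2 1.42.0, limma 3.58.1 and sva 3.50.0, and the procedure was tested on simulated data. Ratios, shares and nearest patterns carry no test. Nearest patterns used log2 CPM with a prior count of 2.

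Members, lists and tests were chosen with earlier results of these data known. Named genes were the 10 members, the 2 genes of smallest p in each list plus fixed partners, the gene of highest mean CPM in each cell type list, and the nearest gene to each member (for P4ha2 it is not reported here). Ptprc, Itgb1, Cd24a, Xist, Htra2, Gm38391, Kdm3a, Eln, Postn, Ly6c2 and the cell type genes at 0 were named outside this rule, after their values were seen.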

Additional observations from a re-analysis of the deposited data

Results flagged for a closer look

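Of 67 sets of 4 LFD values that were checked (members, other named genes and ratios), 4 held a library whose gap to its nearest neighbour, as a share of the range, exceeded Dixon's 95% critical value, which chance exceeds in about 1 in 20 sets. The linear scale and this set of values were chosen after seeing the data, when the log2 CPM of the 10 genes alone had given none. For Loxl4 per 1000 fibrillar collagen counts this share was 0.896, with 5.17 in LFD 1 and 0.726 to 1.19 in the other LFD libraries. LFD 1 also stood apart for Col5a3 (0.859, 191 CPM beside 97.2 to 110.4) and for Ttc30b, the gene nearest to Loxl4 (0.877, 22.9 CPM beside 9.64 to 11.3). Col5a2 stood apart in LFD 3 (0.922, 508 CPM beside 354 to 366).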

How the results depend on the processing

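No member passed the adjusted threshold of 0.05 in any of the 16 alternative fits per gene. In 160 member fits the sign turned in 6. Loxl4 changed from -0.27 to 0.0256 with limma-voom, 0.0833 with the replicate block and 0.0628 without that block in the same libraries, and ran from -0.413 to 0.0628 when each library was left out. Plod1 turned to -0.24 with the erythroid share in the model and ran from -0.0261 to 0.538 when each library was left out. Among other named genes the erythroid share turned P3h1 (-0.14), Crtap (-0.0253), Fkbp10 (-0.00558), Ric8a (-0.13), Hbb-bs (0.13) and Vwf (0.37), and limma-voom turned Col2a1 (-0.0685). Ttc30b ran from -0.450 to 0.0612 over left-out libraries and was 0.0606 with the block and 0.0612 without it. The cause was not tested.

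All genes called numbered 5 in the main test, 8 with no filter beyond 1 count, 0 with at least 10 counts in 4 libraries, 361 with DESeq2, 26 with limma-voom, 2 with 1 surrogate variable, 1 with the erythroid share, 10 at an adjusted p under 0.1, and 1 to 6 with a library left out. Of 49 pathway genes DESeq2 called 3 and limma-voom 1. Members at an unadjusted p under 0.05 numbered 5 in the main test, 7 with DESeq2 or limma-voom, 1 without LFD 3, HFD 2 or HFD 3, 2 without LFD 2 and 6 without HFD 4. Replicate numbers 2 to 4 occur in both diets, but same-numbered libraries did not deviate together (correlations -0.03, 0.03 and -0.13). With the replicate block 0 genes were called, and 3 in the same 6 libraries without it. The fit without the block was added after seeing the data and equals the fit without LFD 1.

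The lowest count of any member in a library was 189, for Loxl2.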
